A study of Mus musculus with 19 samples.

Results

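In mouse cells differentiating from neurospheres (NSPs) towards astrocytes, 244 of 90154 ATAC-seq peaks (0.271%) passed a rule for being most accessible at 72 h. A peak belonged to this set when its mean value at 72 h without TNF was at least 50 normalised reads and at least 1.7 times each of the means in NSPs, at 24 h and at 1 week. ATAC-seq uses a transposase that inserts adapters into open DNA, so the number of reads in a peak rises with the accessibility of that stretch of chromatin. A normalised read is a read in a peak divided by a factor that puts the libraries on one scale.

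The cells were primary neural stem cells of wild type C57BL/6J embryos at embryonic day 14, taken from the ventricular zone. They were grown as floating NSPs in proliferation medium and then differentiated on coated plates in medium with serum. The 19 libraries fell into 6 groups. Without TNF there were NSPs (n = 3), cells after 24 h (n = 3), after 72 h (n = 3) and after 1 week (n = 4) of differentiation. With TNF at 50 ng/ml there were cells after 24 h (n = 3) and 72 h (n = 3), and none of the libraries had TNF at 1 week. The labels do not say which libraries shared an embryo or a culture, so the p-values measure the spread between these libraries, which may be technical. The labels give no sorting of the cells, and fewer cells of a type cannot be told apart from less open chromatin per cell.

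When neural stem cells become astrocytes, promoters and enhancers open and close over time. Some sites open early and stay open, while others are open for a limited time during the transition. Most sites that change in this way lie in introns or between genes, far from promoters. TNF is an inflammatory cytokine that acts largely through the transcription factor NF-κB, and reactive astrocytes arise under such signals.

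Few of the 244 peaks lay at promoters. RefSeq promoter windows are stretches of 300 bases around a gene start, most of them upstream of it (build GRCm38.p6), and 13 windows shared at least 150 bases with one of the peaks. The windows of 5 protein-coding genes whose accessibility is described further on are printed here, 5′ to 3′ on the strand of the gene. Those of Srgn, Ier3 and Gramd4 lie wholly in their peaks. Those of Dhrs4 and Fuom share 228 and 272 of their 300 bases with their peaks. Capitals mark matches, on either strand, to the short motifs searched. The CATCTG marked in the Fuom window lies outside the peak. Srgn lies on the minus strand (chr10:62507708-62508007), Ier3 on the plus strand (chr17:35821463-35821762), Dhrs4 on the plus strand (chr14:55478508-55478807), Gramd4 on the plus strand (chr15:86057445-86057744) and Fuom on the minus strand (chr7:140102357-140102656).
Srgn: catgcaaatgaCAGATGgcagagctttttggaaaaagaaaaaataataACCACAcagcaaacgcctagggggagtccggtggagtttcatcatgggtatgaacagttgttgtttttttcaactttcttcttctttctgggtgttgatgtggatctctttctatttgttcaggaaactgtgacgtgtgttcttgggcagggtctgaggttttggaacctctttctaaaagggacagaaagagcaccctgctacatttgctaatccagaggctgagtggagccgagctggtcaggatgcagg
Ier3: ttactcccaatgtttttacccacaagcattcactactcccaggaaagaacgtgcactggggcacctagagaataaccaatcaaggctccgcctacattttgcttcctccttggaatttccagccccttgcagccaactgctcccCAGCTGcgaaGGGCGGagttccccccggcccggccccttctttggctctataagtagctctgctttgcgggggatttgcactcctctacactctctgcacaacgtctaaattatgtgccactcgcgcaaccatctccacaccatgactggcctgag
Dhrs4: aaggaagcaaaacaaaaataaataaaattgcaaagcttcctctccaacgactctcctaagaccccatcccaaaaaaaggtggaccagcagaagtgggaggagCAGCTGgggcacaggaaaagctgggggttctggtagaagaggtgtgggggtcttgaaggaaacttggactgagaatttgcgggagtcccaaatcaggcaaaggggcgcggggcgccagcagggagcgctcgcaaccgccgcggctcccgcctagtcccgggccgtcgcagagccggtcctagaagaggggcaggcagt
Gramd4: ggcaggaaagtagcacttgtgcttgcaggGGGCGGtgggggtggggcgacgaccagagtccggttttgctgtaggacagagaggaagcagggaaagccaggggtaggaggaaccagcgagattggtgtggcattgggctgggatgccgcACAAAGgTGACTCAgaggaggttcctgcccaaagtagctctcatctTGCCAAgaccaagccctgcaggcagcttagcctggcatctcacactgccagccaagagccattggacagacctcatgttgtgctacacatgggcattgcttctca
Fuom: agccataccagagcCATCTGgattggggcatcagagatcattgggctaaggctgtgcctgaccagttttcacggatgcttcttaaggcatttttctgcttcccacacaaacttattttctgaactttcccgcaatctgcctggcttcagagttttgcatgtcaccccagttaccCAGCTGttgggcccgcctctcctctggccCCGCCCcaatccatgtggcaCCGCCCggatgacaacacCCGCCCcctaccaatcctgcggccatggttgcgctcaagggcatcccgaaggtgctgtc

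The motifs were those of AP-1 (TGANTCA), NFI (TTGGCA, and the longer palindromic NFI motif), TEAD (GGAATG), SOX (ACAAAG and ACAATG), E-box proteins (CAGCTG and CATCTG), RUNX (TGTGGT), STAT (TTCNNNGAA), RFX (GTTGCC), ETS (CCGGAA), the GC box (GGGCGG), nuclear receptors (AGGTCA) and the SRF box. The capitals of the 5 windows printed do not overlap. The E-box CATCTG was in 6 of the 13 windows and in 17.2% of all 32851 promoter windows. CAGCTG was in 4 of 13 and in 16.3% of all, and the GC box was in 7 of 13 and in 35.7% of all. TGANTCA was in 2 of 13, 1 of them at Gramd4, and in 7.81% of all windows. TTGGCA and ACAAAG were each in 3 of 13, against 14.1% and 18.7% of all windows. The RUNX motif was in 2 of 13 and in 16.8% of all. The TEAD, RFX and nuclear receptor motifs and the second SOX motif were each in 1 of 13, against 14.7%, 12.5%, 16.3% and 12.6% of all windows. The ETS and STAT motifs were in 0 of 13, against 14.9% and 8.30% of all, and so were the longer NFI motif and the SRF box, which were rare in all windows (0.0365% and 0.0639%). Among these 13 windows 2 pairs overlap, those of Srgn with the lncRNA gene Gm51804 and the 2 starts of Fuom, so the windows are not independent. Matches were counted over whole windows, also where a part lies outside the peak. The CATCTG in the Gm51804 window and in both Fuom windows lies outside the peak. Their median GC content was 56.3%, and that of all windows was 52.7%. A match describes letters and not a bound site.

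Reads in peaks ranged from 9640256 to 39349111 per library, and from 12239620 to 13137103 in the 72 h libraries. In the 72 h libraries each of the 244 peaks had between 23 and 448 reads, with a median of 67. The library names at 72 h and 1 week, with and without TNF, carry a tag that those of NSPs and 24 h lack, and what it marks is not stated. Peaks within 1 kb of an end of 7 astrocyte marker genes summed to 2076 to 2295 normalised reads at 72 h, to 1707 to 1938 at 24 h and to 1478 to 2333 in NSPs. The same sum over 5 ependymal markers was 1952 to 2417 at 72 h, 1743 to 1854 at 24 h and 2971 to 3440 at 1 week. For 7 neuronal markers it was 1502 to 1733 at 72 h and 2020 to 2389 in NSPs, and for 7 microglial markers 345 to 412 at 72 h and 359 to 445 in NSPs. For 7 oligodendrocyte lineage markers it was 496 to 564 at 72 h and 639 to 707 in NSPs. Endothelial and mural markers (7) had 286 to 381 and 492 to 581, and fibroblast and meninges markers (7) 955 to 1052 and 1253 to 1376. Only 4 neuronal, 3 microglial, 4 oligodendrocyte, 2 endothelial and mural and 2 fibroblast markers had peaks at gene ends. None of the marker peaks of these cell types was among the 244, and the part of cell composition in their pattern was not tested.

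The peaks highest at 72 h were of ordinary height at that time and low at the others. Their median of group means was 82.8 normalised reads at 72 h, close to the 83.8 of all peaks at 72 h. It was 31.7 in NSPs, 38.5 at 24 h and 39.4 at 1 week, where the medians of all peaks were 82.1, 83.9 and 82.8. The peaks were chosen by these untreated values, which are therefore given without a test. The 72 h mean ran from 50.1 to 524 normalised reads, with 165 peaks under 100 and 10 at 200 or more. The ratio of the 72 h mean to the next highest untreated mean ran from 1.7 to 3.75, with a median of 1.86, and reached 2 in 61 peaks and 2.5 in 6.

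**Figure D1:**
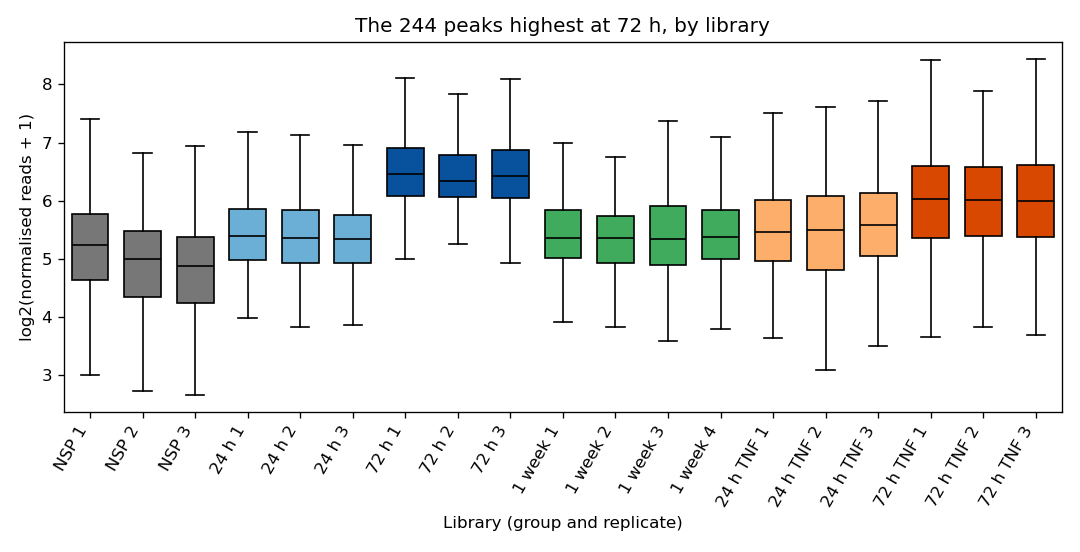
Normalised reads of the 244 peaks in each of the 19 libraries, as log2(normalised reads + 1), with the libraries on the horizontal axis coloured by group. Boxes show the quartiles and the median, and whiskers reach to 1.5 times the quartile range. Library medians were 80.1 to 87.5 normalised reads at 72 h, 63.0 to 64.4 at 72 h with TNF, 43.3 to 46.7 at 24 h with TNF and under 42 in every other library.

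In 214 of the 244 peaks, each 72 h library was above each of the other 10 untreated libraries. The rule used these libraries, so the count describes the choice and nothing is read from the 1.77% of all peaks that were so separated. The second highest untreated group was 1 week for 110 peaks, 24 h for 103 and NSPs for 31. NSPs were lowest for 152, so the largest part of the set was least open in stem cells, more open at 72 h and lower again at 1 week. The comparison of 72 h with 1 week lies within libraries that carry the tag in their names. When 1 of the 72 h libraries was left out of the choice of peaks, between 36.6% and 47.8% of the peaks so chosen also reached 1.7 times the other means in the library left out, against 0.653% to 0.880% of all peaks. In 95.1% to 95.9% of them the library left out was above the other 3 means, against 14.8% to 17.2% of all peaks. The rule used those 3 means also here and favours peaks where they are low. The size of the set depends on how libraries are scaled, since scaling each to the same total of reads in peaks gave 986 peaks and TMM factors gave 398, both including all 244.

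At the lower limit of the level, peaks in Eapp and Pnpla1 were just inside with 72 h means of 50.1 and 50.4, and peaks nearest to Aox2 and Il33 were just outside with 49.8 and 49.1. At the limit of the ratio, peaks in Akap10 and Eapp were just inside and peaks nearest to Syn3 and Cib4 just outside, all with ratios that round to 1.7.

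Dlx2, a homeobox transcription factor of forebrain interneuron development, had the peak with the largest ratio, 3.75, 321 bp from an end of the gene (chr2:71542837-71543337). Its values were 135, 109 and 148 normalised reads at 72 h, 38.7, 39.8 and 25.9 at 24 h, 19.9, 6.12 and 16.6 in NSPs and 22.04, 27.3, 41.8 and 43.96 at 1 week. The 72 h libraries stood far above all others without TNF. With TNF the values were 22.1, 39.9 and 34.3 at 24 h and 122, 135 and 131 at 72 h, so both 72 h groups overlapped and both 24 h groups overlapped.

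The highest peak of the set lay 2080 bp from Zfp36, which encodes tristetraprolin, a protein that promotes decay of inflammatory mRNAs (chr7:28381058-28381558). It had 512, 536 and 523 normalised reads at 72 h, 185, 172, 207 and 165 at 1 week, 70.6, 109 and 77.6 at 24 h and 45.6, 55.6 and 39.9 in NSPs. The 1 week libraries were intermediate and the 72 h libraries did not overlap with them. With TNF it had 126, 175 and 163 at 24 h and 433, 508 and 534 at 72 h. A peak in Cnot1, the scaffold of the CCR4-NOT deadenylase complex (chr8:95748691-95749191), had 113, 83.7 and 119.8 normalised reads at 72 h, 50.1, 22.1 and 14.8 at 24 h, 28.3, 20.5 and 42.6 at 24 h with TNF and 119, 106 and 81.6 at 72 h with TNF. It was lowest in NSPs, at 11.4 ± 7.57 (SD, n = 3).

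Ier3, an early response gene linked to cell survival, had its peak at the promoter (chr17:35821327-35821827), and all of the window printed above lies in it. The values were 54.04, 61.01 and 43.3 normalised reads at 72 h, 19.4, 29.5 and 9.85 at 24 h, 24.5, 17.9 and 13.95 in NSPs and 17.6, 19.5, 13.2 and 6.43 at 1 week. With TNF they were 19.5, 47.4 and 23.9 at 24 h and 89.4, 97.6 and 94.8 at 72 h, so the 72 h libraries with TNF were above those without. That difference was 0.83 ± 0.41 on the log2 scale (SE from limma-trend, adjusted p = 0.202 by Benjamini-Hochberg), not under 0.05. At the promoter of Srgn, which encodes the proteoglycan serglycin (chr10:62507577-62508077), the 72 h libraries had 63.1, 64.6 and 62.5 normalised reads. The other untreated means were 11.5 ± 8.51 at 24 h (SD, n = 3), 12.9 ± 4.06 in NSPs (SD, n = 3) and 20.9 ± 2.19 at 1 week (SD, n = 4).

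The comparison of TNF-treated cells at 72 h and at 24 h used no library of the rule and so showed whether the rise with time was also present under TNF. Of the 244 peaks, 56 were called higher at 72 h with TNF than at 24 h with TNF (23.0%) and 0 lower (limma-trend, Benjamini-Hochberg adjusted p under 0.05 over 88919 peaks). The background was 10.3% called higher and 11.5% called lower among all peaks tested. At an unadjusted p under 0.05 limma-trend gave 82 higher and 0 lower, edgeR's quasi-likelihood test called 60 higher and 0 lower, and DESeq2 70 higher and 0 lower. Shares over all peaks in these settings are not reported here, so these counts are not read against a background. The log2 fold change was above 0 in 206 peaks (84.4%), against 49.3% of all peaks. Its median was 0.44, with quartiles of 0.15 and 0.76 and a range from -0.57 to 2.02, and the median of all peaks was -0.01. The libraries of the 72 h TNF group were all above those of the 24 h TNF group in 107 peaks and all below in 8. Among all peaks 21.3% were so separated upwards and 22.3% downwards. This comparison crosses the tag in the library names, so time and the tag cannot be told apart in it. Marker sums also moved between these 2 groups. From 24 h with TNF to 72 h with TNF, the sum over the ependymal markers went from 2170 to 2237 up to 2754 to 3168 normalised reads and that over the astrocyte markers from 1656 to 1860 up to 1963 to 1995. The sum over 7 endothelial and mural markers went from 358 to 421 down to 272 to 335. For the neuronal, microglial, oligodendrocyte and fibroblast markers the ranges of both groups overlapped. Peaks at gene ends were found for 2 of 5 ependymal, 6 of 7 astrocyte and 2 of 7 endothelial and mural markers, and the part of cell composition in the comparison was not tested.

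**Figure D2:**
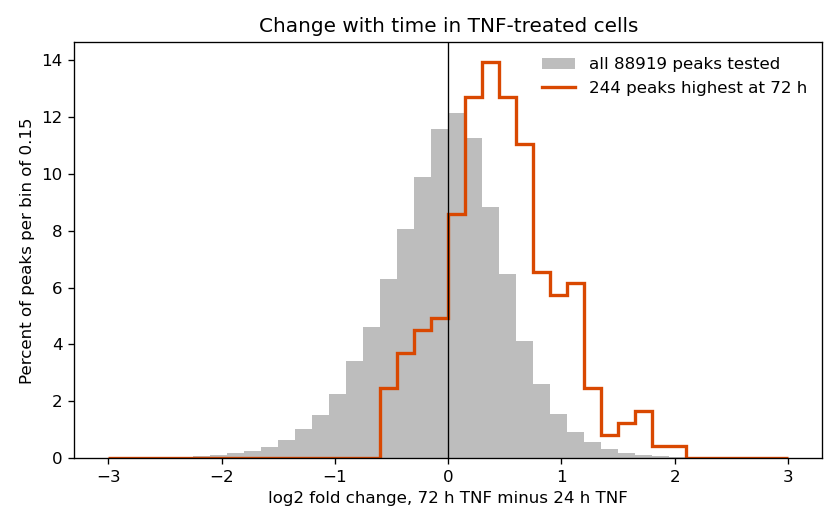
Log2 fold change from 24 h with TNF to 72 h with TNF (horizontal axis) against the percent of peaks per bin of 0.15 (vertical axis), for the 244 peaks highest at 72 h without TNF (line) and for all 88919 peaks tested (grey). The line is shifted to the right of the grey area, with a median of 0.44 against -0.01.

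The peaks that rose with time under TNF included those at Dlx2 and Ier3 and at the genes of RNA turnover Zfp36 and Cnot1. The Dlx2 peak had 32.1 ± 9.08 normalised reads at 24 h and 129 ± 6.16 at 72 h (SD, n = 3 in both groups) and rose by 2.02 ± 0.34 on the log2 scale (SE from limma-trend, adjusted p = 0.000116 by Benjamini-Hochberg). The peak near Zfp36 rose by 1.67 ± 0.17 (adjusted p = 3.63e-08), from 154 ± 25.6 to 492 ± 52.7 normalised reads. It had the smallest p of the set in this comparison. The peak in Cnot1 rose by 1.76 ± 0.40 (adjusted p = 0.00214) and the one at the Ier3 promoter by 1.705 ± 0.41 (adjusted p = 0.0035).

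Several of the named peaks lay at genes of enzymes. Fuom, the fucose mutarotase, had a peak over most of its printed promoter window (chr7:140102128-140102628). The values were 52.2, 53.9 and 50.9 normalised reads at 24 h with TNF and 169, 164 and 173 at 72 h with TNF. These did not overlap, and the log2 fold change was 1.67 ± 0.21 (adjusted p = 1.43e-06). Without TNF the same peak had 67.2, 53.1 and 39.4 at 24 h, 129.97, 158 and 168 at 72 h and 66.1, 60.01, 74.8 and 58.98 at 1 week. Dhrs4, an oxidoreductase of the short-chain dehydrogenase family, had a peak at its start (chr14:55478580-55479080) with 175, 184 and 156 at 24 h with TNF and 342, 361 and 344 at 72 h with TNF. Without TNF its values were 167, 178 and 171 at 24 h, 363, 327 and 373 at 72 h, 158, 168 and 146 in NSPs and 126, 101, 145 and 136 at 1 week. The 2 series ran close to each other, and the rise under TNF was 1.02 ± 0.14 (adjusted p = 8.69e-06).

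Tpmt, the thiopurine methyltransferase, was the gene nearest to the 938 bp peak at chr13:47020373-47021311, which had 32.7, 29.1 and 38.4 normalised reads at 24 h with TNF and 105, 87.2 and 96.01 at 72 h with TNF. It rose by 1.499 ± 0.23 on the log2 scale (adjusted p = 3.82e-05). The peak at an end of Gstt3, a glutathione transferase, rose by 1.51 ± 0.41 (adjusted p = 0.00927), from 25.3 ± 7.20 to 72.6 ± 10.2 normalised reads (SD, n = 3 in both). A peak in Gmpr, the guanosine monophosphate reductase, rose by 1.09 ± 0.28 (adjusted p = 0.0055), to 101 ± 3.90 against 94.5 ± 9.97 at 72 h without TNF.

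**Figure D3:**
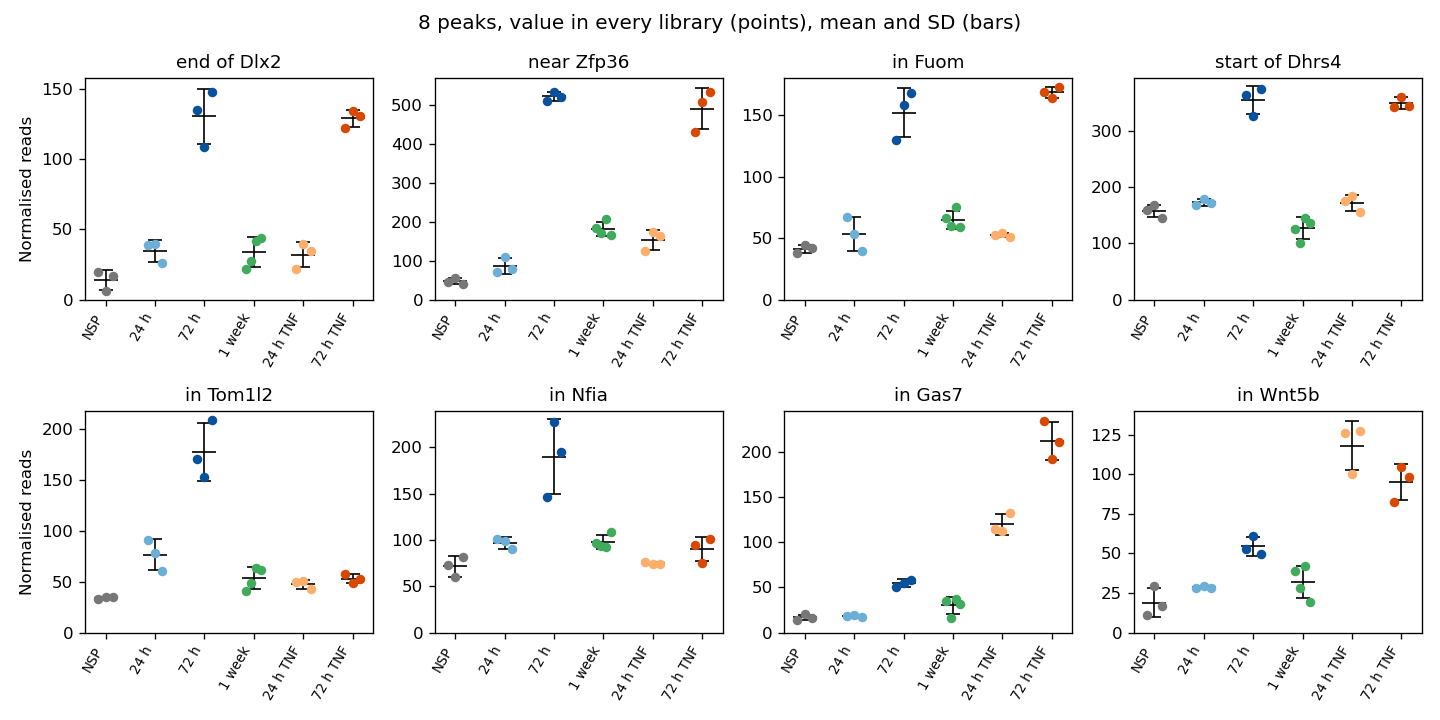
Normalised reads (vertical axes, from 0) of 8 peaks in every library of the 6 groups, with points for libraries and bars for the mean and SD. The peaks at Dlx2, Zfp36, Fuom and Dhrs4 rose from 24 h to 72 h with TNF, while at 72 h the peaks in Tom1l2 and Nfia were lower with TNF than without, and in Gas7 and Wnt5b the TNF libraries were above the untreated ones at both times. In Wnt5b the difference at 72 h was not called.

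Genes of secreted and membrane proteins were among the rest. A peak at an end of Serping1, which encodes the C1 inhibitor of complement (chr2:84774744-84775244), had 56.6, 70.03 and 67.5 normalised reads at 24 h with TNF and 111, 119.7 and 110.4 at 72 h with TNF, a rise of 0.81 ± 0.22 (adjusted p = 0.00879). In Drd3, a dopamine receptor gene, the peak rose by 1.13 ± 0.19 (adjusted p = 0.000131), and near Lgi1, which encodes a secreted synaptic protein, by 0.92 ± 0.21 (adjusted p = 0.00231). At an end of the protocadherin gene Pcdhgb1 it rose by 1.08 ± 0.36 (adjusted p = 0.0298), a call that was lost in 4 of 6 cases when 1 TNF library was left out. A peak 96152 bp from its nearest gene, Qrsl1 (chr10:43777786-43778286), had 74.3, 74.3 and 57.1 at 24 h with TNF and 161, 145 and 152 at 72 h with TNF and rose by 1.15 ± 0.22 (adjusted p = 0.000343). Its ratio without TNF, 3.05, was the second largest of the set. Further rises were found near Tex44, with 1.12 ± 0.20 (adjusted p = 0.000213), and in Ralgds, which encodes an exchange factor for Ral, with 0.71 ± 0.21 (adjusted p = 0.016), the latter not called without 24 h TNF replicate 2 or without 72 h TNF replicate 2.

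At other named peaks no change with time under TNF was called. The Srgn promoter had 23.9, 25.9 and 22.8 normalised reads at 24 h with TNF and 54.5, 31.04 and 50.4 at 72 h with TNF, which did not overlap, with a log2 fold change of 0.84 ± 0.40 (adjusted p = 0.129). At the Gramd4 promoter the values were 70.7, 102 and 106 at 24 h with TNF and 136, 142 and 96.01 at 72 h with TNF, which overlapped (log2 fold change 0.42 ± 0.23, adjusted p = 0.193). Peaks in Dnm3, Rad51b and 4930402H24Rik, which have 3 of the 12 largest ratios without TNF, had log2 fold changes of 0.01 ± 0.44, 0.10 ± 0.36 and 0.39 ± 0.29.

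Called peaks were found in each class of position. Peaks with a centre within 1 kb of a gene end were called higher in 12 of 23 cases, with a median log2 fold change of 0.81, where 10.7% of all such peaks were called. Inside genes it was 26 of 140 (background 9.84%) with a median of 0.36, and outside genes 18 of 81 (background 10.7%) with a median of 0.49. The difference between the position classes was not tested. The 12 peaks at gene ends included those of Dhrs4, Dlx2, Kif19a, Ier3, Camk1, Serping1, Gstt3, Fkbp11, Nfe2l1, Pcdhgb1 and Cd82.

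**Figure D4:**
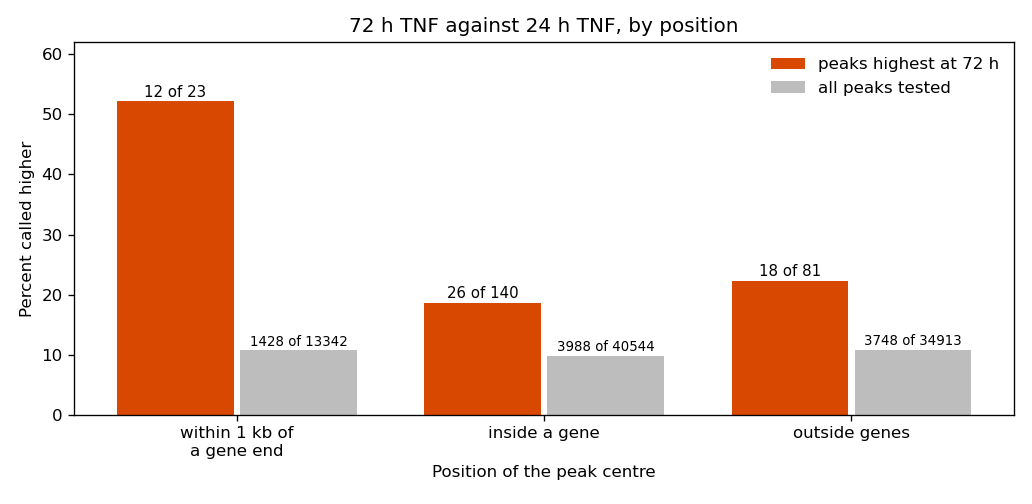
Percent of peaks called higher at 72 h with TNF than at 24 h with TNF (vertical axis, from 0), by the position of the peak centre, for the peaks highest at 72 h without TNF and for all peaks tested. Numbers over the bars are the peaks called and the peaks in each class. The peaks highest at 72 h stood above all peaks tested in each class, with 12 of 23 called at gene ends.

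The effect of TNF at 72 h itself shares the 72 h libraries with the rule, which picked peaks that were high in them, so its calls are a description of how far TNF-treated cells reached the untreated level. With all 3 libraries, 60 peaks were called lower with TNF and 3 higher, against a background of 5.55% lower and 6.24% higher. The median log2 fold change was -0.50. Both groups carry the tag in their library names. The TNF libraries were all below the untreated 72 h libraries in 123 peaks (15.1% of all peaks). The 72 h TNF mean was above all of the NSP, 24 h and 1 week means in 179 peaks, which was so for 17.1% of all peaks. It passed the same 2 thresholds as the untreated mean in 73 peaks of the set and in 2064 of all 90154. The rule chose peaks with low NSP, 24 h and 1 week means, which fixed part of both counts. The 72 h TNF mean was above the untreated 72 h mean in 53. On the log2 scale the fold change was above 0 in 54 peaks, against 53.2% of all peaks tested. Of the 56 peaks that rose with time under TNF, 5 were also called lower than at 72 h without TNF. How many of all peaks had both calls is not reported here.

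A reading that does not share libraries chose the peaks without 1 of the 72 h libraries and compared the TNF group with that library alone, whose spread was assumed to equal that of the other groups. It gave 270, 325 and 303 peaks, with median log2 fold changes of -0.30, -0.27 and -0.26, where all peaks had 0.03, 0.02 and 0.00. Of these peaks 12, 15 and 12 were called lower (background 1.6%, 0.751% and 1.23%), and 4, 5 and 3 were called higher (background 2.54%, 1.9% and 1.94%).

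**Figure D5:**
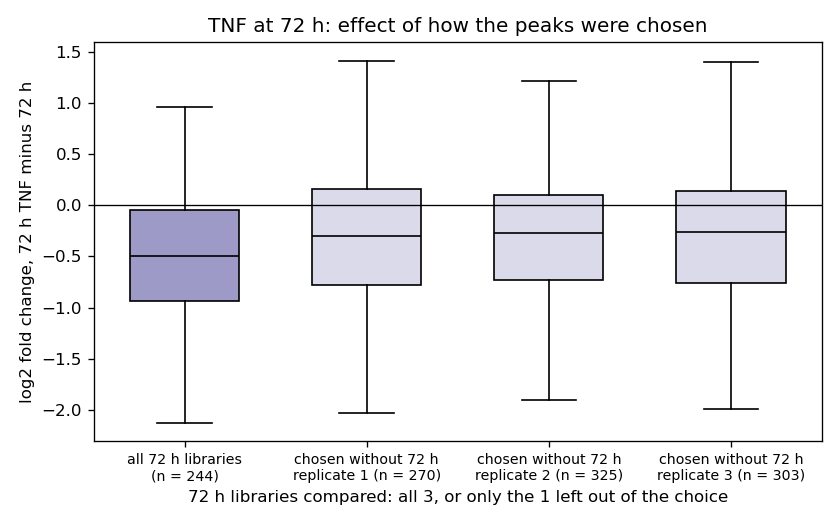
Log2 fold change from 72 h without TNF to 72 h with TNF (vertical axis) for the 244 peaks against all 3 untreated libraries, and for the 270, 325 and 303 peaks chosen without 1 of them against the library left out alone. Boxes show the quartiles and the median, and whiskers reach to 1.5 times the quartile range. The median was -0.50 for the first box and -0.30, -0.27 and -0.26 for the others.

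Peaks that were lower under TNF at 72 h included those in Dner, Tom1l2, Phldb2, Nfia and Lrp5. In Dner, a transmembrane receptor with EGF repeats that binds Notch (chr1:84380974-84381474), the values were 95.2, 95.7 and 86.7 normalised reads at 72 h and 27.7, 20.7 and 22.8 at 72 h with TNF. At 23.7 ± 3.60 (SD, n = 3) the peak under TNF was no higher than its 24 h level without TNF, 37.6 ± 9.66, and these libraries overlapped. The log2 fold change was -1.93 ± 0.34 (adjusted p = 0.000227), and the peak was called lower against each of the 3 libraries left out.

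Tom1l2, which encodes an adaptor of vesicle traffic, had a peak (chr11:60231326-60231826) with 171, 153 and 209 normalised reads at 72 h and 57.2, 48.8 and 52.8 at 72 h with TNF. These values were far apart, and the log2 fold change was -1.72 ± 0.23 (adjusted p = 6.93e-06). A peak whose nearest gene, Ktn1, was 179744 bp away (chr14:47916058-47916558) had 246, 246 and 238 at 72 h and 85.8, 81.3 and 101 at 72 h with TNF, a difference of -1.44 ± 0.19 (adjusted p = 7.6e-06). In NSPs it was low, with 16.9, 16.5 and 14.6. Both peaks were called lower against each of the 3 libraries left out. In Phldb2, which encodes a protein that anchors microtubules at the cell cortex, the log2 fold change was -1.91 ± 0.29 (adjusted p = 3.59e-05), from 82.03 ± 14.8 to 20.96 ± 2.80 normalised reads (SD, n = 3 in both). It was chosen without 1 of the 72 h libraries in 1 of 3 cases and was called lower in that case.

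The only peak at a gene of the astrocyte list lay inside Nfia, a transcription factor needed for the onset of gliogenesis (chr4:97785530-97786030). It had 147, 227 and 195 normalised reads at 72 h, 94.8, 75.4 and 101 at 72 h with TNF, 101, 98.8 and 89.9 at 24 h and 76.05, 74.3 and 73.7 at 24 h with TNF. At 72 h the TNF libraries were all lower, with a log2 fold change of -1.05 ± 0.19 (adjusted p = 0.000371), and the peak was called lower against 2 of the 3 libraries left out. In Lrp5, a co-receptor of Wnt (chr19:3669029-3669529), the values were 143, 165 and 164 at 72 h and 61.7, 91.6 and 56.4 at 72 h with TNF. The difference was -1.19 ± 0.23 (adjusted p = 0.000789), and it was called against 2 of the 3 libraries left out. At an end of Sdc3, a heparan sulphate proteoglycan of the nervous system, the difference was -1.52 ± 0.35 (adjusted p = 0.0036), and it was called against 1 of the 3.

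The 3 peaks called higher with TNF at 72 h lay in Gas7, in Rbm20 and near Tle3, and all 3 were also called higher with TNF at 24 h. Gas7 encodes a cytoskeletal protein first found in growth-arrested cells. Its peak (chr11:67622298-67622798) had 18.2, 19.2 and 17.2 normalised reads at 24 h, 115, 112 and 133 at 24 h with TNF, 50.2, 55.02 and 58.6 at 72 h and 234, 192 and 211 at 72 h with TNF. No TNF library overlapped with an untreated one. The log2 fold change with TNF was 2.65 ± 0.27 at 24 h (adjusted p = 1.22e-07) and 1.94 ± 0.27 at 72 h (adjusted p = 1.58e-05), and both were called against every library left out. In Rbm20, a splicing regulator, the changes were 1.82 ± 0.28 at 24 h (adjusted p = 5.04e-05) and 0.96 ± 0.28 at 72 h (adjusted p = 0.0225). Near Tle3, a transcriptional corepressor 62419 bp away, they were 1.13 ± 0.23 (adjusted p = 0.00125) and 0.72 ± 0.23 (adjusted p = 0.0386). Against single libraries left out, the Rbm20 peak was called at 24 h in 2 of 3 cases and at 72 h in none, and the Tle3 peak in none at either time.

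At 24 h, where the rule picked peaks with low untreated values, 30 peaks were called higher with TNF and 17 lower, against a background of 7.06% and 3.53%. The median log2 fold change was 0.07. When the peaks were chosen without 1 of the 24 h libraries and compared with it alone, the medians were -0.05, -0.02 and 0.00, with 11, 9 and 12 peaks called higher (background 3.09%, 3.57% and 2.41%) and 5, 3 and 0 lower (background 0.729%, 0.909% and 0.368%). In 13 peaks TNF was called lower at both times with all libraries, and the share of all peaks so called is not reported here.

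Wnt5b, a Wnt ligand, had a peak (chr6:119526420-119526920) with 28.5, 29.5 and 28.3 normalised reads at 24 h and 126, 100.2 and 128 at 24 h with TNF, a rise of 1.99 ± 0.31 (adjusted p = 4.92e-05) that was called against each of the 3 libraries left out. At 72 h it had 52.8, 61.01 and 49.7 without and 82.3, 105 and 98.4 with TNF, a difference of 0.79 ± 0.31 that was not called (limma-trend, adjusted p = 0.0928). In Vdr, the vitamin D receptor (chr15:97880371-97880871), the values were 36.4, 26.6 and 29.6 at 24 h, 72.5, 63.6 and 73.7 at 24 h with TNF, 63.1, 98.1 and 79.03 at 72 h and 71.5, 81.3 and 60.01 at 72 h with TNF. The TNF libraries at 24 h thus lay in the range of the 72 h libraries. Its rise at 24 h was 1.16 ± 0.32 (adjusted p = 0.0155) and was called against none of the 3 libraries left out. The peak near Zfp36 was higher with TNF at 24 h by 0.85 ± 0.17 (adjusted p = 0.00109), and this was called against 2 of the 3 libraries left out, while at 72 h the difference was -0.10 ± 0.17 (adjusted p = 0.782).

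The interaction of TNF with time, which asks whether the effect of TNF differed between 72 h and 24 h, gave 0 calls among the 244 peaks with limma-trend. The smallest adjusted p was 0.307, at the peak near Zfp36, and 78 peaks had an unadjusted p under 0.05. Counts over all peaks tested are not reported here, so neither number is read against a background. The interaction test also shares the 24 h and 72 h libraries with the rule.

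The peaks were spread over the genome. By the position of the centre, 57.4% lay inside a gene (45.2% of all peaks), 33.2% outside genes (39.4%) and 9.43% within 1 kb of a gene end (14.9%), and 6.15% overlapped a promoter window (11.9%). The median distance to a gene end was 19.5 kb, and 20.1 kb for all peaks. Chromosome 2 held 26 and chromosome 11 held 25 of the 244. Within 10 kb of 185 of them lay 183 other peaks that did not meet the rule, and 27.9% of these had their highest untreated mean at 72 h, against 13.8% of all peaks outside the set. With TNF, 20 of 182 tested neighbours were called higher at 72 h than at 24 h, against 10.3% of the peaks outside the set.

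A run of 3 peaks within 50 kb of each other lay on chromosome 11 at Slc22a4, an organic cation transporter, and Pdlim4, an actin-associated LIM protein. At 72 h the peak in Slc22a4 had 85.6 ± 5.84 normalised reads, the one in Pdlim4 175 ± 6.25 and the one 2887 bp from Pdlim4 136 ± 33.7 (SD, n = 3 for each). From 24 h to 72 h with TNF the log2 fold changes were 0.23 ± 0.28 (adjusted p = 0.605), 0.44 ± 0.23 (adjusted p = 0.178) and 0.71 ± 0.24 (adjusted p = 0.0371) in this order. The last call was lost without single TNF libraries in 5 of 6 cases. The 10 peaks in this span include 7 that did not meet the rule.

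There were 5 pairs of peaks, among them those at Arrb1, Slc38a1, Nat8 and Slc16a13 with Alox12. In Arrb1, which encodes beta-arrestin, the peaks at chr7:99539437-99539937 and chr7:99541206-99541706 had 164 ± 22.2 and 136 ± 37.3 normalised reads at 72 h (SD, n = 3 in both). With TNF at 24 h the first had 129, 119 and 115 and the second 36.3, 46.3 and 60.2, so the first was the more open in each library of that group. This order did not hold in all other groups, as NSP replicate 3 had 39.9 at the first and 49.2 at the second. In Slc38a1, a glutamine transporter, both peaks were called lower at 72 h with TNF, with log2 fold changes of -1.39 ± 0.41 (adjusted p = 0.0241) and -1.39 ± 0.42 (adjusted p = 0.0298), and neither was called against any library left out.

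Of 12 gene lists, 3 held a gene with 1 of these peaks. They were the astrocyte list (1 of its 206 peaks, in Nfia), the extracellular matrix and adhesion list (1 of 164, in Col8a1) and the Wnt list (2 of 208, in Lrp5 and Wnt5b). Progenitor, actin and TEAD target, TGF-beta and BMP, Notch, AP-1, retinoid, cilium, lipid transport and growth factor genes had 0, in lists of 28 to 201 peaks. Since the set was 0.271% of all peaks, lists of this size hold few or none of it, and nothing is read from these counts. None of the 4 peaks of the set in the gene lists was called higher at 72 h than at 24 h with TNF, where 10.3% of all peaks tested were. Over all peaks of the astrocyte list 35 of 206 were called higher and 15 lower, over those of the Wnt list 30 and 25 of 208, and over those of the extracellular matrix list 19 and 16 of 164. In Col8a1, a collagen chain, the peak had 78.5, 47.8 and 77.8 normalised reads at 72 h, 28.5, 23.6 and 32.02 at 24 h, 51.3, 43.1 and 59.2 at 24 h with TNF and 75.1, 36.95 and 51.6 at 72 h with TNF, with no called effect of TNF.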

How the data were processed

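ATAC-seq libraries of NSPs and of differentiating cells, 19 in all, were placed in 6 groups by their titles. As the submitters' processing notes and the study's methods state, the authors used Trim Galore for trimming, aligned reads to mm10 (Bowtie2), filtered them (SAMtools), called peaks (MACS2), removed blacklisted regions and compared groups with DiffBind; versions, the treatment of duplicates and the shift of reads for the transposase are not given in the sources used here. The table deposited by the authors gives a signal, reads in peaks divided by 1 factor per library. Dividing a library by its lowest value turned 100% of its values into whole numbers (within 0.01), which gave back the reads and depths of 9640256 to 39349111. Coordinates are printed as deposited, and whether starts count from 0 or from 1 is not stated. No value lay below that of 1 read.

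In R 4.3.3, the limma-trend test of limma 3.58.1 was applied to log2(value + 1) in all 19 libraries, with 1 mean per group, on the 88919 peaks that edgeR's filterByExpr (minimum count 10) kept, which include all 244. P-values were two-sided and Benjamini-Hochberg adjusted over these peaks, and peaks with an adjusted p under 0.05 were called. Fold changes on this scale understate those of low peaks. Errors of fold changes are SE. edgeR 4.0.16 and DESeq2 1.42.0 were run on the recovered reads. Genes, promoter windows and positions came from RefSeq tables of GRCm38.p6. The named peaks were the highest, those with the largest ratios (also at gene ends and in the gene lists), those with the smallest p among separated calls, those at the thresholds and the 3 longest runs, and some peaks that meet this rule are not reported here. The peaks, the gene lists and the alternatives were chosen with earlier results of these data known.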

Additional observations from a re-analysis of the deposited data

Results flagged for a closer look

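Among 46 named peaks, 4 had TNF libraries that were all below the untreated libraries at 72 h and all above them at 24 h, and this opposite direction marked them for a closer look. In this group the interaction test gave no adjusted p under 0.05 with limma-trend, and the rule itself favours high values at 72 h and low ones at 24 h without TNF. How often all peaks showed the opposite direction is not reported here. At the Srgn promoter the log2 effect of TNF was -0.51 at 72 h and 1.24 at 24 h, a difference of -1.76 (adjusted p = 0.482). In Arrb1 (chr7:99539437-99539937) it was -0.28 and 0.95, a difference of -1.23 (adjusted p = 0.472). In Pdlim4 (chr11:54065727-54066227) it was -0.37 and 0.47, a difference of -0.84 (adjusted p = 0.581), and in 4930402H24Rik (chr2:130735308-130735808) it was -0.50 and 0.32, a difference of -0.82 (adjusted p = 0.67). Dixon's test for a single outlying library was applied to the 1 week group, the one with 4 libraries, for 47 values (the 46 named peaks and the median over the set) and marked 0.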

How the results depend on the processing

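The set of 244 peaks became 986 under scaling to total reads in peaks, 398 under TMM, 711 at a fold of 1.5 and 61 at a fold of 2, and 235 to 325 when 1 untreated library was left out. For 72 h with TNF against 24 h with TNF the count of 56 higher ranged from 36 to 48 when 1 library was left out, the lowest without 24 h TNF replicate 2, and was 84 when only the compared groups were fitted, with 0 called lower in each of these fits. Shares over all peaks for these fits are not reported here. For 72 h with TNF against 72 h, the 60 lower became 96 when only the compared groups were fitted, 36 to 45 when 1 library was left out, and 12, 15 and 12 when the peaks were chosen without the 72 h library compared. The 3 higher became 6 with a pseudocount of 5, 13 with only the compared groups, 6 with edgeR, 8 with DESeq2, 5 when chosen without 72 h replicate 2, and 1 to 2 when 1 library was left out. For 24 h with TNF against 24 h, the 30 higher became 17 to 24 and the 17 lower 3 to 11 when 1 library was left out (fewest lower without 24 h replicate 1), and 11, 9 and 12 higher and 5, 3 and 0 lower when the peaks were chosen without the 24 h library compared. The causes of these shifts were not tested, beyond the smaller number of libraries where some were left out. Of 690 refits of the 46 named peaks for 72 h with TNF against 24 h with TNF, 634 kept direction and call, 30 lost the call, 4 gained it and 22 changed sign, all 22 in 8 peaks that were not called in either fit and whose log2 fold changes were -0.05 to 0.18. Leaving out 1 library gave -0.45 to 0.38 in Dnm3, -0.037 to 0.23 in Rad51b, -0.46 to 0.38 in the first Slc38a1 peak, -0.090 to 0.13 in Vdr, -0.21 to 0.29 in Col8a1, -0.045 to 0.44 in Pnpla1, -0.0076 to 0.16 near Gm30733 and -0.068 to 0.48 at Sdc3. Dnm3 had -0.063 with edgeR and -0.054 with DESeq2. Of the lost calls 26 came from leaving out 1 TNF library at a time, in Gas7 (6 of 6), Akap10 and the peak beside Pdlim4 (5 of 6), Pcdhgb1 and the second Arrb1 peak (4 of 6) and Ralgds (2 of 6). Calls gained were those at the Srgn promoter, in Slc38a1 and near Tle3.

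The labels do not say that a replicate number marks a shared culture or day, and the 72 h TNF libraries titled 1, 2 and 3 carry the numbers 2, 3 and 4 in their names. Deviations of libraries with the same number in the title from their group means correlated between -0.03 and 0.11 over peaks. With the replicate number as a block, 58 peaks were called higher and 0 lower for 72 h with TNF against 24 h with TNF, 5 higher and 58 lower for 72 h with TNF against 72 h, and 30 higher and 17 lower for 24 h with TNF against 24 h. Libraries correlated best with their own title number in 0, 1 and 2 of 3 cases. By the number in the library name, a pairing chosen after seeing the data, the correlations of the pairs available were between 0.00 and 0.11, and the block gave 47 higher and 0 lower, 2 higher and 44 lower, and 30 higher and 17 lower in the same order. That block turned uncalled log2 fold changes to -0.0056 in Rad51b, 0.19 in the first Slc38a1 peak, -0.026 in Vdr and -0.022 in Col8a1, and lost the calls in Gas7, Pcdhgb1, Ralgds and the second Arrb1 peak.

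The depth was lowest at 23 reads for a peak of the set in a 72 h library and at 1 read over all libraries. Median reads over the set were 67 to 68 in the 72 h libraries, 27 to 36 in the 24 h libraries and 18 in 1 week replicate 3. All groups but the one at 1 week had 3 libraries.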

Other observations

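In NSPs, which were the lowest group for most of the 244 peaks, replicate 1 had the highest median over these peaks, 36.8 normalised reads, against 30.9 and 28.6 in replicates 2 and 3. The peak whose nearest gene was Gm30733 (chr2:166226955-166227455), among the 8 highest at 72 h, had 303, 113 and 81.1 normalised reads in the NSP replicates and 301, 355 and 371 at 72 h. NSP replicate 1 there lay in the range of the 72 h libraries. When NSP replicate 1 was left out of the choice of peaks, 245 peaks met the rule, of which 229 were among the 244. Chromosome Y held 2 of the 244 peaks among its 42 peaks in the table, and chromosome X held 1.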
